A study of Mus musculus with 6 samples.

Results

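The Hox genes of mouse lung were examined, defined as the rows of a deposited gene expression table whose symbol is Hoxa, Hoxb, Hoxc or Hoxd followed by a paralog number. They are 39 of the 23284 genes in the table, with 11 in cluster A, 10 in cluster B, 9 in cluster C and 9 in cluster D. Lung RNA came from 3 mice of the genotype Fra-2tg, which carry a transgene for the AP-1 transcription factor Fra-2 (gene Fosl2), and from 3 wild-type littermates. For each gene, values of the 3 mice of a group follow the order of replicates 1 to 3. All 6 mice were 6 weeks old and of C57BL/6 background, and each library is 1 mouse. Neither the promoter that drives the transgene nor the number of founder lines is given in the labels. The study compared the genotypes to find genes that differ in expression.

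Hox genes encode transcription factors that bind DNA through a homeodomain, and they lie in 4 clusters in the order in which they are used along the body axis. Genes at the 3′ end of a cluster, with low paralog numbers, are used towards the head, and those at the 5′ end towards the tail. Genes with the same number in different clusters are paralogs with closely related homeodomains. Lung arises at the level of the anterior and middle paralogs, and its mesenchyme is the main site of their expression during development. In mouse, loss of Hoxa5 disturbs the formation of the trachea and lung, and Hoxb5 takes part in airway branching. Hox proteins bind DNA together with homeodomain cofactors of the Pbx and Meis families.

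Values are FPKM, the fragments of a gene scaled to transcript length and to all mapped fragments, so levels can be set side by side between genes. Of the 39 Hox genes, 13 had a mean of at least 0.5 FPKM over the 6 libraries and were tested, and all 13 reached that mean in each genotype separately. The sources used here give no read numbers. A rough estimate from the steps between the lowest values put them at 15800000 to 26400000 fragments, the deepest a pair of transgenic libraries. At these depths 1 fragment of a transcript of 2000 bases is worth 0.0190 to 0.0316 FPKM. Fosl2 itself was 11.1, 13.9 and 11.2 FPKM in the wild-type mice and 12.3, 17.4 and 15.8 in the transgenic mice. Its groups overlapped and it was not called (log2 fold change 0.30 ± 0.14 (SE), limma adjusted p = 0.158). No source used here says whether its row counts the transgene, so it does not check the labels.

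Paralogs of clusters A and B changed by different amounts and could share fragments, so their homeoboxes were compared. A homeobox is the stretch that codes for the homeodomain. It was read from GENCODE M21 transcripts as 180 bases placed by the tryptophan-phenylalanine-glutamine-asparagine-arginine-arginine motif of the third helix, and it was found in 38 of the 39 genes. The homeoboxes of Hoxa5 and Hoxb5 differed at 29 of 180 bases (83.9% identity), and their whole transcripts shared no identical run longer than 26 bases. Hoxa3 and Hoxb3 were the closest pair of the 7 between clusters A and B, with 11 differing bases (93.9% identity) and a longest shared run of 33 bases. Identity in the other 5 pairs was 74.4% (Hoxa2 and Hoxb2) to 85.6% (Hoxa6 and Hoxb6). The sources used here do not say how fragments that match several genes were split.

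In lung, cluster A and cluster B genes of paralog groups 1 to 7 made up nearly all Hox RNA, and Hoxa5 was the highest of them. Summed over all 39 genes, Hox expression was 124, 119 and 129.9 FPKM in the wild-type mice and 107, 84.0 and 78.4 in the transgenic mice. All 3 Fra-2tg sums lay under all 3 wild-type sums, and Fra-2tg replicate 1 lay nearest to wild type. Cluster A held 59.2% ± 1.08 of the summed FPKM in wild type and cluster B 39.8% ± 1.44 (SD, n = 3). Clusters C and D together held 1.02% ± 0.364 there. Hoxa5 alone held 35.6% ± 0.398, and Hoxb5, the highest gene of cluster B in wild type, 12.7% ± 0.971.

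**Figure D1:**
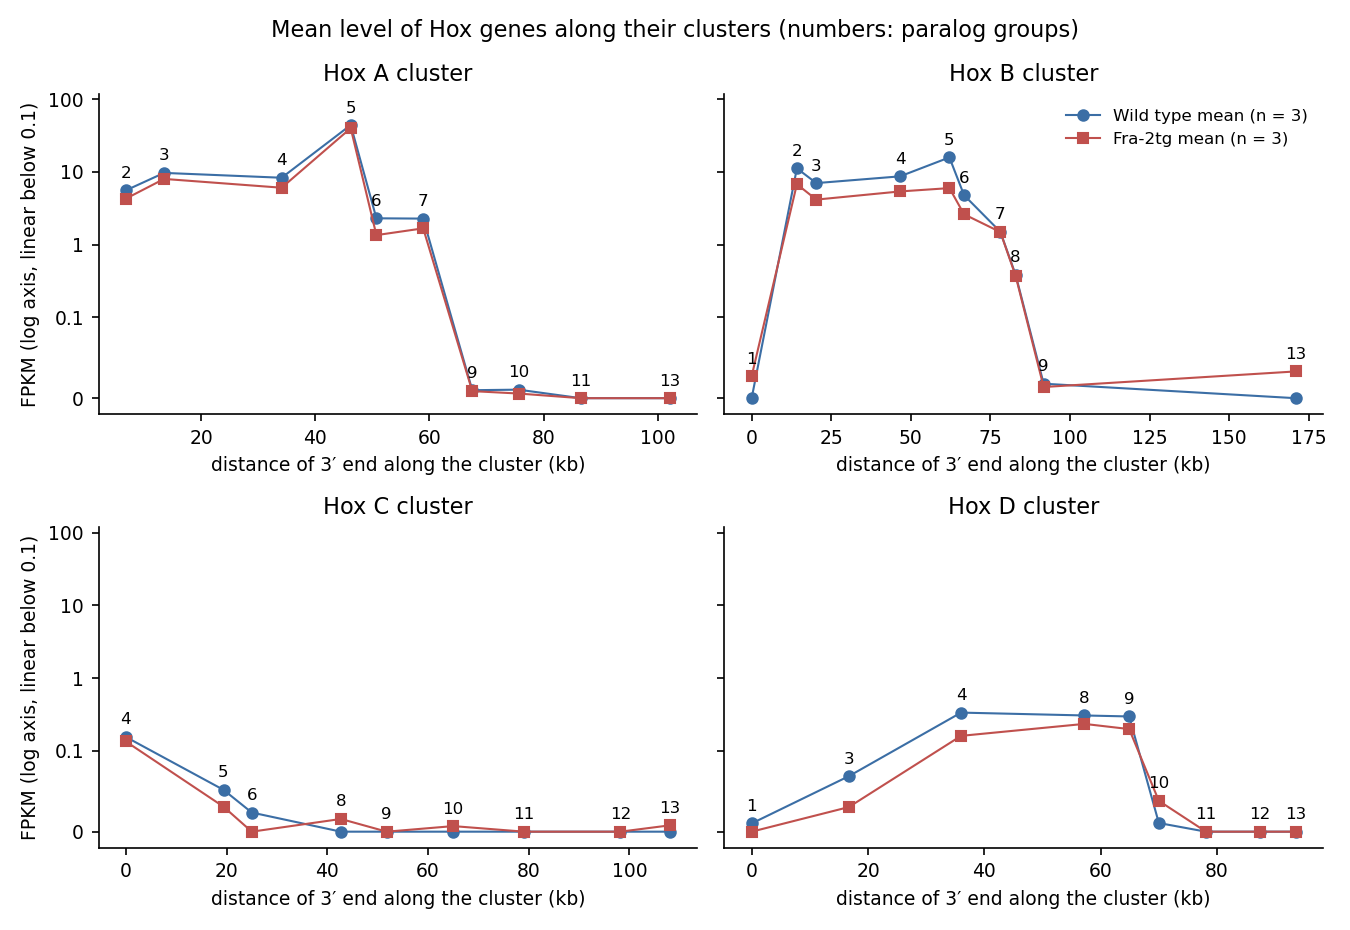
Mean FPKM of 38 Hox genes (y axis, logarithmic above 0.1 and linear below) against the distance in kb of its 3′ end from that of the lowest-numbered gene of its cluster (x axis), for wild type (blue circles, n = 3) and Fra-2tg (red squares, n = 3). Cluster A peaks at paralog 5 in both genotypes. Cluster B peaks at paralog 5 in wild type and, by group mean, at paralog 2 in Fra-2tg (Hoxb2 6.79 ± 1.87 and Hoxb5 6.00 ± 1.16 FPKM, SD). In Fra-2tg replicate 3 the order was the reverse (Hoxb2 5.40 and Hoxb5 5.48 FPKM). Levels in both clusters fall to near 0 from paralog 9 on in both genotypes, and no gene of clusters C and D reaches 0.5 FPKM.

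The level fell off along each expressed cluster at the same place in both genotypes. Cluster A lies on chromosome 6 (GRCm38) and cluster B on chromosome 11 from 96194316 to 96368256. In cluster A the wild-type mean was 2.28 ± 0.297 FPKM at Hoxa7 and 0.00986 ± 0.0171 FPKM at the next gene, Hoxa9 (SD, n = 3). In Fra-2tg these means were 1.68 ± 0.386 and 0.00873 ± 0.0151 FPKM. In wild type, cluster B stepped down through Hoxb7 (1.17 to 1.72 FPKM) and Hoxb8 (0.385 ± 0.106 FPKM) to Hoxb9 (0.0179 ± 0.0310 FPKM). Hoxb8 was 0.371 ± 0.106 FPKM in Fra-2tg, so its means differed by less than the spread within either group. Hoxa9 and Hoxa10, known from blood progenitors and the posterior body, did not exceed 0.0316 FPKM in any library, the worth of 1 fragment of a 2000-base transcript in the shallowest library.

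None of the 18 genes of clusters C and D passed the filter. Cluster D lies on chromosome 2 (74668310 to 74765142) and cluster C on chromosome 15 (102921103 to 103036852). In cluster D, Hoxd4, Hoxd8 and Hoxd9 were the highest, with wild-type means of 0.336, 0.307 and 0.298 FPKM. Hoxd4 was 0.329, 0.324 and 0.355 FPKM in the wild-type mice and 0.177, 0.125 and 0.180 in the transgenic mice. Its groups did not overlap, and it was called lower only where the filter was dropped (limma adjusted p = 0.00964 among 19290 genes, of which 10.2% were called lower). Hoxd4 shares 388 exonic bases with Hoxd3 and 1154 with Gm28230 on the same strand, and 347 with Hoxd3os1 on the opposite strand. The level of Hoxd4 is therefore uncertain. Hoxc4, the highest of cluster C, had a wild-type mean of 0.155 ± 0.108 FPKM (SD, n = 3). Over all clusters 8 Hox genes were listed at 0 in all 6 libraries, namely Hoxa11, Hoxa13, Hoxc9, Hoxc11, Hoxc12, Hoxd11, Hoxd12 and Hoxd13. Another 11 were at 0 in some libraries. Hoxb1 was at 0 in each wild-type mouse and at 0.0251, 0.0395 and 0.0175 FPKM in the transgenic mice. By the rough depth estimate, 1 fragment of a 2000-base transcript is worth 0.0286, 0.0222 and 0.019 FPKM in these transgenic libraries. The Hoxb1 values thus stand for very few fragments, and the deepest libraries are transgenic. With a pseudocount of 0.01 FPKM and no filter, a setting chosen after seeing the data, Hoxb1 was called higher (limma adjusted p = 0.0404), as were 9.95% of all genes.

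Of the 13 tested Hox genes, 8 were lower in Fra-2tg lung and 0 higher. They included Hoxa4 and Hoxa6 of cluster A and Hoxb2, Hoxb3, Hoxb4, Hoxb5 and Hoxb6 of cluster B, the last 5 being neighbours on the chromosome. The test was limma on log2(FPKM + 1) over 14855 genes, with a call at a Benjamini-Hochberg adjusted p under 0.05. It called 13.0% of all genes tested lower and 13.6% higher. At an unadjusted p under 0.05, 9 Hox genes were lower and 0 higher. The median log2 fold change of the 13 was -0.40, and that of all genes tested was 0.00263. With a pseudocount of 0.1 or 0.01 FPKM in place of 1 the median of the 13 was -0.68 or -0.69, and that of all genes 0.00330 or 0.00326. Groups did not overlap for 8 Hox genes, all lower, where 22.4% of all genes tested were lower without overlap and 23.3% higher. The count of lower Hox genes was 5 without wild type 3, Fra-2tg 2 or Fra-2tg 3, 6 without wild type 1, 7 without wild type 2 and 8 without Fra-2tg 1. The share of all genes called lower moved as well, to 7.69% without wild type 3, 9.65% without wild type 1 and 9.10% without Fra-2tg 1, where 7.79% were called higher. It was 10.2% without wild type 2, 11.5% without Fra-2tg 2, where 9.98% were called higher, and 10.001% without Fra-2tg 3. With FPKM rescaled to equal library sums, 6 Hox genes were lower, against 7.86% of all genes lower and 7.61% higher. Lung is a mixture of cells, and in bulk RNA fewer cells of a type and less RNA per cell cannot be told apart.

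Of these genes Hoxa4, Hoxb2, Hoxb3 and Hoxb5 share exonic bases with annotated antisense genes, from 100 at Hoxb5 (Hoxb5os) to 2250 at Hoxb3 (Hoxb3os), and their values are uncertain to that extent because strand use in counting is not stated. Hoxa6, Hoxb4 and Hoxb6 share none with another gene.

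**Figure D2:**
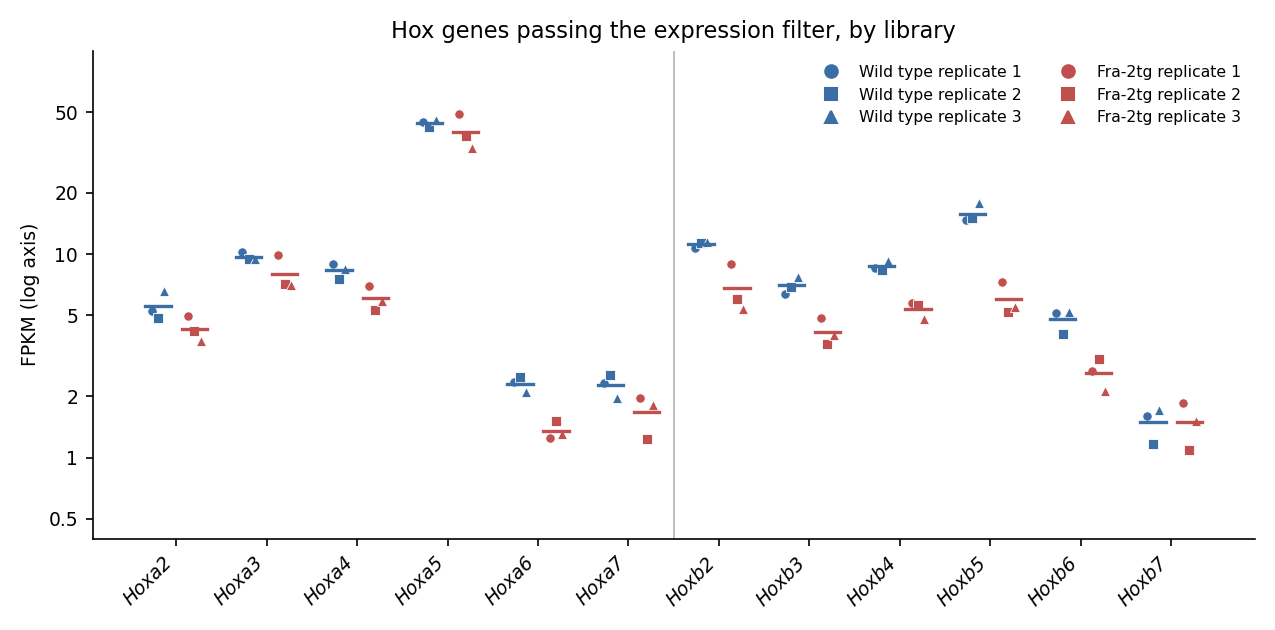
FPKM (log axis) of 12 of the 13 tested Hox genes in each library, wild type in blue and Fra-2tg in red, with symbols for replicates 1 to 3 and horizontal lines at group means; the grey line separates cluster A from cluster B. Hoxa5 is the highest gene in every library, and the groups stand farthest apart at Hoxb5 (14.7 to 17.9 against 5.19 to 7.33 FPKM).

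Hoxb5 showed the largest fall of the tested Hox genes. It lies on chromosome 11 from 96303336 to 96306121 on the plus strand. Its level was 14.7, 15.01 and 17.9 FPKM in the wild-type mice and 7.33, 5.19 and 5.48 in the transgenic mice. Every Fra-2tg value was under every wild-type value. The group means were 15.9 ± 1.74 and 6.00 ± 1.16 FPKM (SD, n = 3 each), 0.378 times wild type, with a log2 fold change of -1.28 ± 0.13 (SE; limma adjusted p = 0.00189). This call held in all 16 other settings of the test, with log2 fold changes from -1.41 to -1.18.

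The neighbours of Hoxb5 fell by smaller and similar amounts. Hoxb4, which acts in blood stem cells as well as in mesenchyme, was 8.52, 8.37 and 9.23 FPKM in the wild-type mice and 5.77, 5.62 and 4.799 in the transgenic mice. These groups did not overlap, and the means stood at 0.620 times wild type (log2 fold change -0.60 ± 0.08 (SE), limma adjusted p = 0.00376). Hoxb3, a regulator of hindbrain and pharyngeal patterning, was 6.41, 6.93 and 7.74 FPKM in the wild-type mice and 4.85, 3.64 and 4.02 in the transgenic mice. It fell to 0.593 times wild type, again without overlap (limma adjusted p = 0.00778). Hoxb6 was 5.13, 4.03 and 5.22 FPKM in the wild-type mice and 2.66, 3.07 and 2.13 in the transgenic mice. Its lowest wild-type value, in replicate 2, still exceeded the highest Fra-2tg value (0.546 times wild type, limma adjusted p = 0.0113).

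Hoxb2, a hindbrain patterning gene at the 3′ side of the cluster, had tight wild-type values of 10.8, 11.4 and 11.5 FPKM and wider Fra-2tg values of 8.92, 6.05 and 5.40 FPKM. The group means gave 0.605 times wild type (limma adjusted p = 0.0229), with Fra-2tg replicate 1 nearest to wild type. Leaving out either of wild type 2 and 3, or either of Fra-2tg 2 and 3, ended this call (limma adjusted p = 0.0546 to 0.0760), with log2 fold changes of -0.66 to -0.55 against -0.68. Hoxb7, the next gene on the 5′ side of Hoxb6, did not follow its neighbours. It was 1.61, 1.17 and 1.72 FPKM in the wild-type mice and 1.87, 1.09 and 1.52 in the transgenic mice. Its groups overlapped fully (log2 fold change -0.01 ± 0.15 (SE), limma adjusted p = 0.966), and the sign turned in 4 of 15 alternatives.

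**Figure D3:**
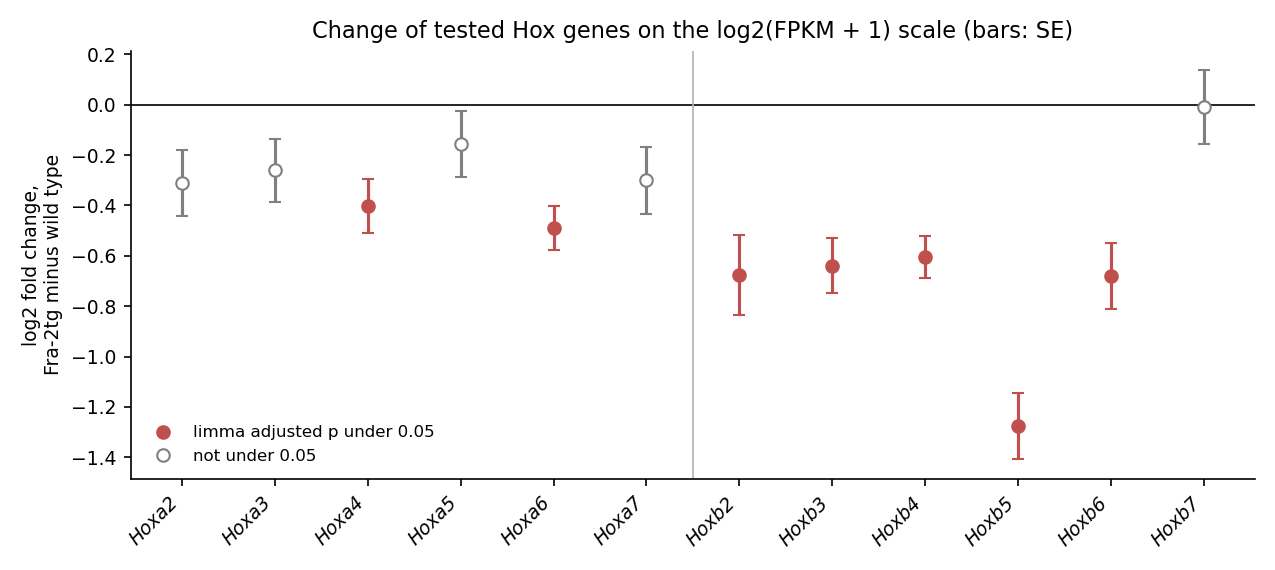
Log2 fold change of Fra-2tg minus wild type on the log2(FPKM + 1) scale for 12 of the 13 tested Hox genes in order of cluster and paralog number, with bars of 1 SE from limma (n = 3 each); filled red points have an adjusted p under 0.05 and open grey points do not. All values shown are under 0, from -1.28 at Hoxb5 to -0.01 at Hoxb7, and 5 of the 6 genes of cluster B are called.

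In cluster A, 3 of 7 tested genes were lower, and the most abundant, Hoxa5, was not called. Hoxa5 lies on chromosome 6 from 52201754 to 52204587 on the minus strand. Its level was 44.8, 42.2 and 45.7 FPKM in the wild-type mice and 48.6, 38.1 and 33.4 in the transgenic mice. Fra-2tg replicate 1 lay above and the other two below all wild-type values. The means were 44.2 ± 1.81 and 40.1 ± 7.78 FPKM (SD, n = 3 each), with a log2 fold change of -0.16 ± 0.13 (SE; limma adjusted p = 0.410). It was not called in any of the 16 other settings, where the adjusted p ranged from 0.0579 (without Fra-2tg replicate 1) to 0.832.

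Hoxa6, the gene next to Hoxa5 on its 5′ side, was 2.34, 2.48 and 2.09 FPKM in the wild-type mice and 1.25, 1.51 and 1.30 in the transgenic mice. The groups did not overlap, and the means stood at 0.587 times wild type (log2 fold change -0.49 ± 0.09 (SE), limma adjusted p = 0.00929). Hoxa4, on the other side of Hoxa5, was 9.00, 7.53 and 8.45 FPKM in the wild-type mice and 6.99, 5.30 and 5.92 in the transgenic mice, a fall to 0.729 times wild type (limma adjusted p = 0.0349). Its groups did not overlap either. Leaving out wild type 1, wild type 3, Fra-2tg 2 or Fra-2tg 3 ended the call of Hoxa4 (limma adjusted p = 0.0809 to 0.105), with log2 fold changes of -0.39 to -0.32 against -0.40. With FPKM rescaled to equal library sums, Hoxa4 was not called (limma adjusted p = 0.0955).

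Hoxa2, Hoxa3 and Hoxa7 were not called. Hoxa2, which patterns the pharyngeal arches, was 5.28, 4.85 and 6.63 FPKM in the wild-type mice and 4.96, 4.19 and 3.74 in the transgenic mice, with 1 Fra-2tg value inside the wild-type range (log2 fold change -0.31 ± 0.13 (SE), limma adjusted p = 0.122). Hoxa3, needed for thymus and parathyroid formation, was 10.2, 9.43 and 9.47 FPKM in the wild-type mice and 9.89, 7.13 and 7.05 in the transgenic mice. Here too Fra-2tg replicate 1 lay within wild type, and without it Hoxa3 was called lower (log2 fold change -0.40, limma adjusted p = 0.0215, against 0.167 with all libraries). Hoxa7 was 2.33, 2.55 and 1.96 FPKM in the wild-type mice and 1.97, 1.24 and 1.82 in the transgenic mice (log2 fold change -0.30 ± 0.13 (SE), limma adjusted p = 0.139).

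For 10 of the 13 tested genes the highest transgenic value was that of replicate 1. The summed cluster A level was 75.0, 70.0 and 75.5 FPKM in the wild-type mice and 74.4, 58.0 and 54.0 in the transgenic mice, so Fra-2tg replicate 1 was within the wild-type range. The summed cluster B level was 47.7, 47.3 and 53.5 FPKM in the wild-type mice and 31.8, 25.2 and 23.7 in the transgenic mice, with no overlap. The ratio of Fra-2tg to wild-type means was 0.844 ± 0.151 for cluster A and 0.544 ± 0.0956 for cluster B (SD from the spread in both groups). As a share of Hox RNA in Fra-2tg, cluster A stood at 69.1% ± 0.238 and cluster B at 29.97% ± 0.263 (SD, n = 3). These shares did not overlap between genotypes and are described without a test, since they sum over chosen genes.

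Paralogs of the same number were compared within each library, which removes what scales all genes of a library alike. The log2 ratio of Hoxb5 to Hoxa5 was -1.61, -1.49 and -1.36 in wild type and -2.73, -2.88 and -2.61 in Fra-2tg replicates 1 to 3. The groups lay far apart, Hoxb5 being 0.358 times Hoxa5 in wild type and 0.1502 times in Fra-2tg on average. The difference of -1.25 exceeded the spread in either group (SD 0.126 and 0.133, n = 3 each). An exact two-sided permutation test over the libraries gave p = 0.1, the smallest that 3 against 3 allows, and 0.24 adjusted over the 6 pairs compared. Hoxb3 over Hoxa3 also separated the groups, at -0.67, -0.44 and -0.29 in wild type and -1.03, -0.97 and -0.81 in Fra-2tg (exact permutation p = 0.1, adjusted 0.24). The other 4 pairs overlapped. Hoxb7 over Hoxa7 went the other way, from -0.62 ± 0.473 in wild type to -0.18 ± 0.0918 in Fra-2tg, a difference of 0.44 (SD, n = 3 each; exact permutation p = 0.2, adjusted 0.24). Hoxb6 over Hoxa6 was 1.05 ± 0.316 in wild type and 0.94 ± 0.206 in Fra-2tg (SD, n = 3 each; exact permutation p = 0.6).

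**Figure D4:**
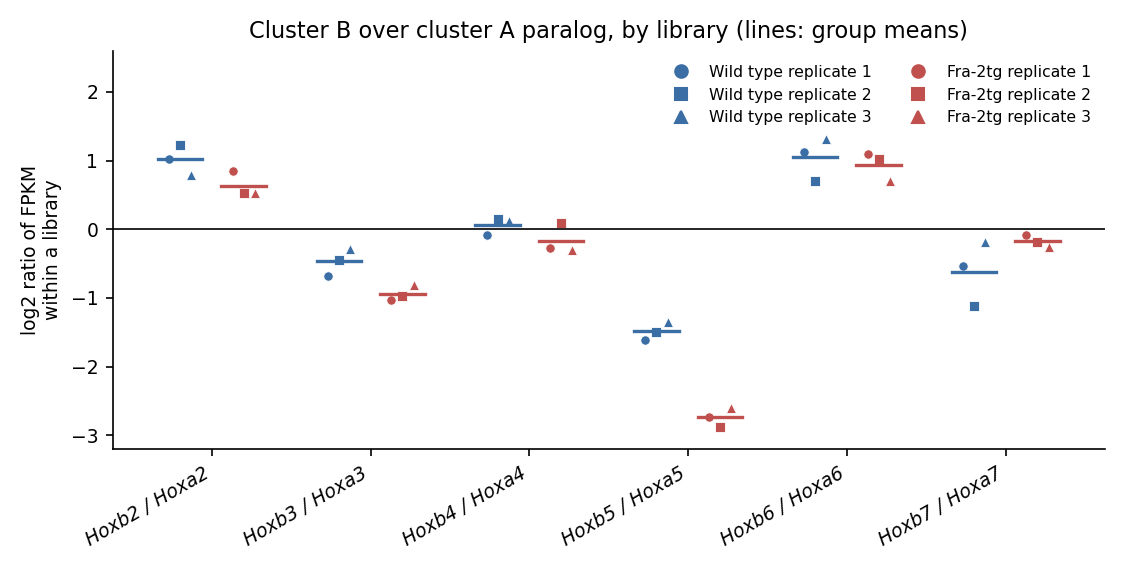
Log2 ratio of the FPKM of the cluster B gene to that of its cluster A paralog within each library, wild type in blue and Fra-2tg in red, with lines at group means. The ratio of Hoxb5 to Hoxa5 lies between -1.61 and -1.36 in wild type and between -2.88 and -2.61 in Fra-2tg, while the groups overlap for 4 of the 6 pairs.

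Promoters of a pair of genes that fell and of Hoxa5, which was not called, are shown for their CG content. They run from 250 bases before to 50 bases after the annotated start, are taken from RefSeq (GRCm38.p6) and are written 5′ to 3′ on the gene's strand. Capitals mark each CG dinucleotide. RefSeq promoters matched 22 of the 39 Hox genes and 6 of the 13 tested.
Hoxb4, chr11:96318017-96318316, plus strand: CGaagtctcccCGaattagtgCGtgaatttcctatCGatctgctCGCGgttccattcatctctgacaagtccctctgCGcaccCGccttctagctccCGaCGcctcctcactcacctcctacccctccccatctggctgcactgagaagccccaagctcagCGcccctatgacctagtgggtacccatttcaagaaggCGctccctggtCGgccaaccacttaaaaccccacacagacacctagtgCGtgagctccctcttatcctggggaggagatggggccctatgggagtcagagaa
Hoxa6, chr6:52208623-52208922, minus strand: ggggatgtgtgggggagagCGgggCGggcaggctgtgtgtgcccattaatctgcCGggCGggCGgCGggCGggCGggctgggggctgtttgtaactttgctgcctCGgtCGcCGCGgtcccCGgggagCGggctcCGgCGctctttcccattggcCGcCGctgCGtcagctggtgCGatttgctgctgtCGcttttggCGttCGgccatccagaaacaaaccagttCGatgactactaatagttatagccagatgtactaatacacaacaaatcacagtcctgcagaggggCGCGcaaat
Hoxa5, chr6:52204538-52204837, minus strand: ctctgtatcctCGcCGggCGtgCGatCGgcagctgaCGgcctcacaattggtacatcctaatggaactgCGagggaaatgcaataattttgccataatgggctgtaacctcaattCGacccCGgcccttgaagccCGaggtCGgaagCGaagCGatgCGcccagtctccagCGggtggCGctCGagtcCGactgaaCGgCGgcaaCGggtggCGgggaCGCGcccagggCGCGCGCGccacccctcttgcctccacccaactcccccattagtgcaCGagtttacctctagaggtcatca
The promoter of Hoxb4 held 14 CG dinucleotides, that of Hoxa6 26 and that of Hoxa5 29, against a median of 7 over 32817 promoters. The median over the 22 Hox genes was 13.5. Among tested genes not shown, the promoter of Hoxa3 held 20 and those of Hoxa2 and Hoxa7 held 9 each. GC content was 58.0% at Hoxb4, 61.7% at Hoxa5 and 62.0% at Hoxa6. Its median was 56.8% over the 22 Hox genes and 52.7% over all promoters. The AP-1 motif TGANTCA, searched on both strands, was in 0 of the 6 promoters of tested genes and in 7.81% of all promoters. Those 6 were of Hoxa2, Hoxa3, Hoxa5, Hoxa6, Hoxa7 and Hoxb4. Hoxa4, Hoxb2, Hoxb3, Hoxb5 and Hoxb6, all called lower, had no promoter to search. At a share of 7.81%, 6 windows are too few for a count of 0 to be informative. Among the 22 Hox genes the AP-1 motif was in the window of Hoxd11 only, and that gene was listed at 0 in every library. The CRE motif TGACGTCA was in 0 of the 22 and in 1.79% of all promoters. The HOX-PBX motif TGATTNAT was in the windows of Hoxa2 and Hoxd11 and in 3.22% of all promoters. These are matches of letters in a short window.

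Counts of called genes in the lists that follow stand against the 13.0% of all genes tested that were called lower and the 13.6% called higher. Of 9 tested cofactors, members of the Pbx, Meis and Pknox families, 2 were lower and 0 higher in Fra-2tg at an adjusted p under 0.05, too few genes to set against those shares. Meis1, which encodes a homeodomain partner of Hox proteins, was 18.0, 17.3 and 20.3 FPKM in the wild-type mice and 10.03, 8.34 and 9.50 in the transgenic mice. It fell to 0.501 times wild type without overlap (limma adjusted p = 0.00162). Pknox2 stood at 0.748 times wild type (limma adjusted p = 0.0175). Meis2 was not called (log2 fold change 0.11 ± 0.06 (SE), limma adjusted p = 0.217).

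Of 20 tested genes of signals known to set Hox expression in the embryo, 3 were higher, near the 13.6% of all genes, and 5 lower, against 13.0%. Cyp26b1, which degrades retinoic acid, an inducer of anterior Hox genes, fell to 0.0820 times wild type (limma adjusted p = 0.000428). The retinoic acid receptor Rarg fell to 0.745 times wild type (limma adjusted p = 0.00818). Gdf11, a ligand that sets the position of posterior Hox expression, rose from a wild-type mean of 0.756 ± 0.237 FPKM to 2.79 ± 0.213 FPKM (SD, n = 3 per genotype; limma adjusted p = 0.00192). Fgf10, the mesenchymal ligand of lung branching, fell to 0.443 times wild type (limma adjusted p = 0.00360). Cdx2 and Cdx4, caudal activators of posterior Hox genes, were listed at 0 in all libraries.

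Calls among chromatin regulators of the clusters were no more frequent than among all genes. Of 34 tested Polycomb subunits, which keep Hox genes silent, 3 were higher and 3 lower, both under the shares of all genes (13.6% and 13.0%). Cbx7, a reader of the mark H3K27me3, fell to 0.535 times wild type (limma adjusted p = 0.000428), and Phf1 to 0.752 (limma adjusted p = 0.00613). The methyltransferases of this mark went opposite ways, Ezh1 at 0.771 times wild type and Ezh2, the form of dividing cells, up from 4.87 ± 0.803 to 7.29 ± 0.489 FPKM (SD, n = 3 per genotype; limma adjusted p = 0.00964 and 0.0177). Of 14 tested trithorax and H3K27 demethylase genes, 1 was lower and 0 higher, also under those shares. That gene was the demethylase Kdm6b, at 0.791 times wild type (limma adjusted p = 0.0174). At the edges of the clusters, 3 of 20 tested genes were higher and 3 lower, near the shares of all genes. Snx10, beside cluster A, rose 1.41-fold and Mtx2, beside cluster D, 1.29-fold, while Calcoco1 and Nfe2, beside cluster C, fell to 0.735 and 0.495 times wild type (limma adjusted p = 0.0131, 0.00453, 0.00328 and 0.0149). Noncoding RNAs of the loci gave no test. Of 10 with a row, 8 were listed at 0 in all libraries, among them the precursors of miR-10a and miR-196, and the cluster A antisense gene 2700086A05Rik did not exceed 0.641 FPKM. The libraries are of poly(A) RNA, so values of 0 do not show that the short microRNA precursors are absent.

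**Figure D5:**
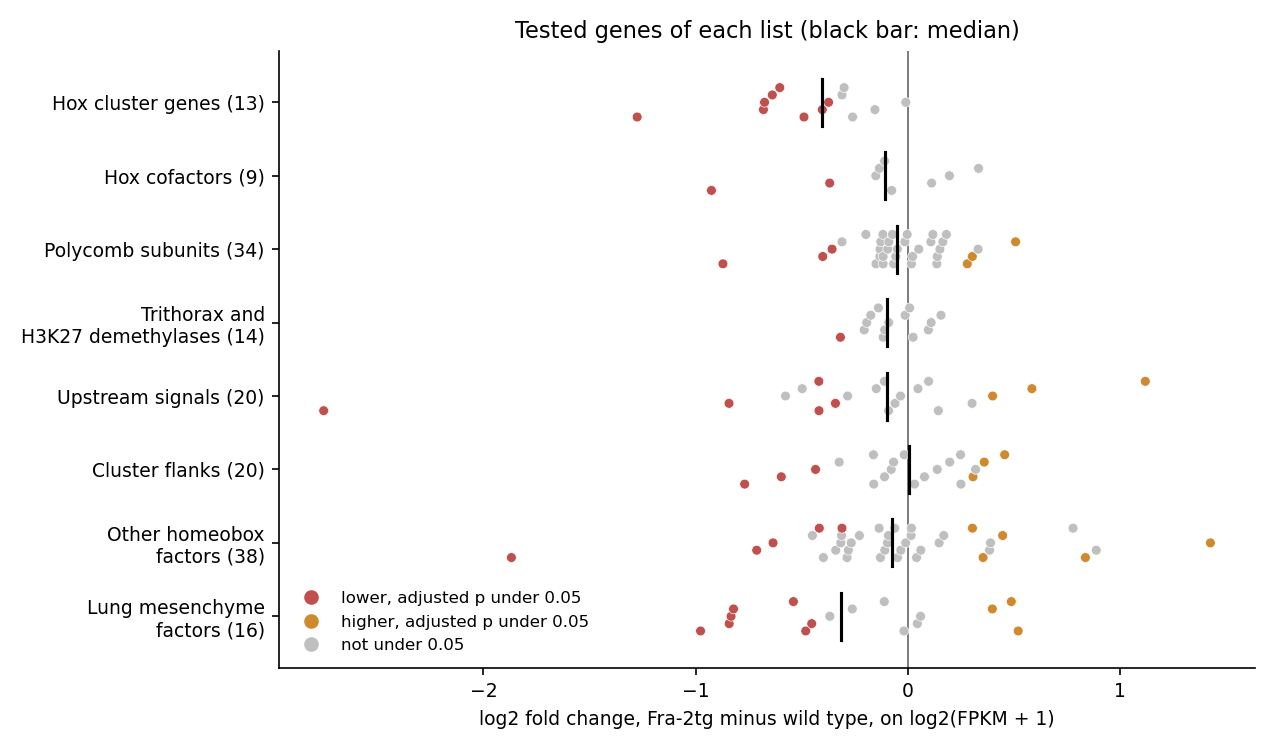
Log2 fold change (Fra-2tg minus wild type on log2(FPKM + 1)) of every tested gene of the Hox clusters and of 7 related lists, with the number tested in brackets, black bars at list medians and colours for genes called lower (red), higher (orange) or not called (grey). The median of the 13 Hox genes is -0.40 and that of the 38 other homeobox factors -0.08; positions within a row only spread the points.

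Of 38 tested homeobox factors outside the clusters, 5 were higher and 5 lower, about the shares of all genes (13.6% and 13.0%), with a median log2 fold change of -0.08. Meox1, a mesodermal factor, fell to 0.204 times wild type and Hopx, which marks alveolar type 1 cells, to 0.610 (limma adjusted p = 0.000207 and 0.00215). Cux1 rose 1.38-fold (limma adjusted p = 0.00379). Msx3 was 0, 0.558 and 0 FPKM in the wild-type mice and 1.91, 2.14 and 2.30 in the transgenic mice (limma adjusted p = 0.00325). Of 16 tested transcription factors of lung mesenchyme, 7 were lower and 3 higher, against 13.0% and 13.6% of all genes, with a median of -0.32. The T-box gene Tbx2 fell to 0.508 times wild type, Tbx4 to 0.559, Foxf2 to 0.548 and Tbx3 to 0.551 (limma adjusted p = 0.00195, 0.00301, 0.00371 and 0.00444). Whether the Hox genes differ from these lists was not tested.

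Markers of the cells that could carry Hox RNA also differed between the genotypes. Of 13 fibroblast markers, 5 were higher and 5 lower, and their summed level was 1878 to 2168 FPKM in wild type and 2254 to 2754 FPKM in Fra-2tg. Within that list Col3a1 rose 2.59-fold while Pdgfra fell to 0.557 times wild type. For smooth muscle and pericytes, 5 of 10 markers were lower and 1 higher, with sums of 602 to 659 FPKM in wild type and 448 to 524 FPKM in Fra-2tg. Of 9 endothelial markers, 4 were lower and 1 higher (1292 to 1434 against 1152 to 1160 FPKM), and of 5 mesothelial markers 1 was lower and 1 higher (99.8 to 141 against 99.0 to 112 FPKM). None of the markers in these 4 lists was at 0 in a whole group. Macrophage markers were higher for 6 of 8 and lower for 0 (394 to 907 against 1889 to 4106 FPKM). Markers of heart and skeletal muscle were lower for all 5 tested (171 to 256 against 48.3 to 82.5 FPKM, Myh4 at 0 throughout). Of the blood cell lists, B cells had 6 of 7 markers lower, neutrophils 5 of 6 and T and NK cells 4 of 8 with 1 higher, and blood progenitors had 2 of 5 higher and 1 lower. Airway markers were lower for 2 of 6, and lymph node and thymus markers were called for 0 of 3. Of 10 alveolar epithelial markers, which check the tissue, 4 were higher and 3 lower (7220 to 9036 against 9471 to 9991 FPKM). The part of these cell types in the Hox differences was not tested.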

How the data were processed

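Poly(A) RNA of whole lung was sequenced strand-specifically in 6 libraries, 3 wild type and 3 Fra-2tg, per the labels. The authors deposited FPKM values per gene symbol. The tools were Cufflinks 2.2.1, TopHat2 2.0.10 with Bowtie 1.0.0, FastQC and SAMtools 0.1.19 on GRCm38 (mm10), per the submitters' processing notes, which list no roles or settings here. No source used here says whether counting used the strand, and 7 of the 13 tested Hox genes share exonic bases with a gene on the opposite strand (2 with one on the same strand), so their values are uncertain. Depth was estimated from value steps and is rough.

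Two-sided tests with limma 3.58.1 (R 4.3.3) were run on log2(FPKM + 1) with a variance trend and no covariate, over 14855 genes, those whose mean reached 0.5 FPKM. P-values were Benjamini-Hochberg adjusted over all of them. Log2 fold changes are on this scale, which understates changes of low genes. "Times wild type" and "fold" are ratios of group mean FPKM. The limma p-values set the difference between genotypes against the spread between these mice within a genotype, with information on that spread shared across genes. The procedure was tested on simulated data. Every Hox gene was eligible to be named, and from each related list up to 4 called genes with the smallest adjusted p; Meis2, Cdx2, Cdx4, 2700086A05Rik and the marker genes were added after their values were seen. Of 336 listed genes 321 matched a row, 10 by a synonym. Members and lists were chosen with earlier results of these data known. Coordinates and transcripts are GENCODE M21 (GRCm38). Results on 1 Hox gene and some sequences are not reported.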

Additional observations from a re-analysis of the deposited data

How the results depend on the processing

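Hoxb3, Hoxb4 and Hoxb5 were called lower in all 16 alternatives, and Hoxa6 and Hoxb6 in all 15 that tested them. The alternatives were pseudocounts of 0.1 and 0.01 FPKM, no filter, a filter at 5 FPKM, robust moderation, no variance trend, library weights, rescaling to equal library sums or by median ratios, the replicate block and each library left out. The count of Hox genes called lower ranged from 5 (without wild type replicate 3, Fra-2tg replicate 2 or Fra-2tg replicate 3) to 8 with a library left out, and the count called higher stayed at 0. The filter at 5 FPKM tested 7 Hox genes and called 5, against 13.3% of all genes lower. Equal library sums called 6 Hox genes lower, and 1132 genes higher and 1169 lower overall against 2027 and 1936. With a library left out, 1088 to 1695 genes were higher and 1141 to 1709 lower. With a pseudocount of 0.01 FPKM and no filter, an alternative chosen after seeing the data, 1 Hox gene (Hoxb1) was called higher and 9 lower, against 10.02% of all genes lower. The replicate block called 7 Hox genes lower, against 11.1% of all genes. Deviations from the group mean correlated weakly between same-numbered mice (r = -0.0539, 0.0139 and 0.163 for replicates 1 to 3). Between mice of unlike number r ran from -0.220 to 0.186. With 3 mice per group these values cannot settle whether the numbers pair the mice. The median log2 fold change of the 13 moved from -0.40 to -0.68 and -0.69 with pseudocounts of 0.1 and 0.01 FPKM, and with 0.01 FPKM that of Hoxa6 was -0.77 against -0.49. Hoxa4 was not called with no filter or library weights (limma adjusted p = 0.0535 and 0.0636). Hoxb7 turned sign with library weights (log2 fold change 0.084) and without wild type replicate 1 (0.02), wild type replicate 3 (0.05) or Fra-2tg replicate 2 (0.11), uncalled each time, its values with a library left out running from -0.12 to 0.11. Cluster sums moved by less than their spread in every alternative run. That spread was wide for cluster C, with a ratio of Fra-2tg to wild-type means of 0.850 ± 0.627. Its ratio ran from 0.634 without wild type 3 to 1.10 without wild type 2, so its direction was not fixed. Depth limits Hoxb1, the genes of clusters C and D and those of paralogs 9 to 13, whose values are worth few fragments.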
